A study of Homo sapiens with 15 samples.

Results

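Small nucleolar RNAs (snoRNAs), the small RNAs of Cajal bodies and the long non-coding transcripts that carry many of them in their introns were measured in VCaP cells, a prostate cancer cell line that carries a fusion of TMPRSS2 with ERG. The genes were chosen by symbol from the platform's probe annotation: SNORA, SNORD, SCARNA and SNHG followed by a digit, and GAS5. Of 318 such genes on the array, 186 had a probe with a detection p-value under 0.05 on at least 3 of the 15 arrays, and 132 did not. These 186 were 73 of 176 box C/D snoRNAs (SNORD), 79 of 101 box H/ACA snoRNAs (SNORA), 19 of 24 Cajal body RNAs (SCARNA) and 15 of 17 host genes (SNHG and GAS5), out of 12744 genes tested in all. A total of 132 of the 186 were detected on all 15 arrays.

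The study used 5 groups of 3 arrays each: cells transfected for 72 h with ERG siRNA 1, cells transfected for 72 h with ERG siRNA 2, cells given a non-targeting siRNA, cells treated for 24 h with WP1130, a small molecule that inhibits several deubiquitinases, and cells given its vehicle, DMSO. All cells were VCaP cells grown in DMEM with fetal bovine serum. No label gives the WP1130 dose, the times of the control groups or whether replicates were separate cultures. The p-values therefore reflect array-to-array spread alone, which may be technical. RNA was total RNA, labelled as biotinylated cRNA and hybridised to Illumina HumanHT-12 v4 BeadChips, whose signals are intensities. Levels below are log2 normalised intensities, changes are differences of group means on that log2 scale with their standard error (SE), and a gene "rose" or "fell" where limma's Benjamini-Hochberg adjusted p over all 12744 genes was under 0.05.

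Box C/D snoRNAs guide ribose methylation and box H/ACA snoRNAs guide pseudouridylation of ribosomal RNA, while Cajal body RNAs guide the same modifications on spliceosomal RNAs. Most human members are cut out of debranched introns of a host gene, bound by a set of core proteins, and trimmed by exonucleases. A few, U3 (the SNORD3 genes) and U13 (SNORD13) among them, are transcribed from promoters of their own. Host genes are often ribosomal or nucleolar protein genes, or non-coding genes such as SNHG1 and GAS5 whose spliced RNA is short-lived and is degraded when translated. Mature small RNAs have no poly(A) tail, so a labelling reaction primed with oligo(dT) would read them poorly or read longer precursors. The labels do not name the primer, and the part of precursors in these signals was not tested.

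Several snoRNA host transcripts are known to begin with a C followed by an unbroken run of pyrimidines, the 5′ terminal oligopyrimidine start that also marks ribosomal protein mRNAs. The starts of the host genes are shown because an intron-encoded small RNA and its spliced host RNA come from the same promoter. The set of RefSeq (GRCh38.p14) promoter sequences used here held a start for 12 of the 15 host genes, all but SNHG6, SNHG9 and SNHG15. For 9 of them the 30 bases before the start and the 40 bases from it are printed 5′ to 3′ on the transcribed strand, with the pyrimidine run at the first transcribed base in capitals.
SNHG12: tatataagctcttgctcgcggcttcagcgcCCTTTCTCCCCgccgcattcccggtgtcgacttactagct
SNHG4: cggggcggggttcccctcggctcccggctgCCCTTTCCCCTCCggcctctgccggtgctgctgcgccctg
SNHG32: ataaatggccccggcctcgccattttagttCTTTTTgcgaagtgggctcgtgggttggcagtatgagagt
SNHG5: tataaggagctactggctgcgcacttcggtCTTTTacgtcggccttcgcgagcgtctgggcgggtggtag
SNHG7: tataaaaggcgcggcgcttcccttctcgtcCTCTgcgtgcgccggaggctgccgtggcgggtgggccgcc
SNHG1: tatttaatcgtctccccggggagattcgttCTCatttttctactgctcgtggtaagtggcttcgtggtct
SNHG8: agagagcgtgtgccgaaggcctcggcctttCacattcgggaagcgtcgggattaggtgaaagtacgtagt
SNHG17: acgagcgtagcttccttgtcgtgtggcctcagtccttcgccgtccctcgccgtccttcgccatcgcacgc
GAS5: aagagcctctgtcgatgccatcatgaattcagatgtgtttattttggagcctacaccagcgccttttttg

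The windows lie at chr1:28581834-28581903 (minus strand) for SNHG12, chr5:139274071-139274140 (plus) for SNHG4, chr6:31834886-31834955 (plus) for SNHG32, chr6:85678694-85678763 (minus) for SNHG5 and chr9:136728145-136728214 (minus) for SNHG7. Those of SNHG1, SNHG8, SNHG17 and GAS5 lie at chr11:62855846-62855915 (minus), chr4:118278732-118278801 (plus), chr20:38435289-38435358 (minus) and chr1:173869006-173869075 (minus). A C followed by at least 4 pyrimidines stood at the annotated start of 4 of the 12 host genes, SNHG12, SNHG4, SNHG32 and SNHG5, and at 4.07% of all 35116 annotated starts. These 4 genes did not share a response to WP1130: SNHG12 rose, SNHG4 fell, and SNHG5 and SNHG32 did not pass the threshold. In the wider window of 250 bases before and 50 bases from the start, read on both strands, the TATA box letters TATAAA were found in 3 host genes, SNHG1, SNHG7 and SNHG11 (11.5% of all windows). The E-box CACGTG was found in SNHG7 alone (7.26% of all windows), and CCGGAAGT, a high-affinity letter string for ETS factors such as ERG, in none of the 12 (4.14% of all windows). Motifs are descriptions of these letters and were chosen with results of these data known.

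ERG itself was lower with both ERG siRNAs. Its level was 4.997, 5.76 and 5.12 with ERG siRNA 1, 5.57, 4.81 and 5.29 with ERG siRNA 2, and 6.13, 6.04 and 5.84 with the non-targeting siRNA, and the groups did not overlap (mean change -0.74 ± 0.16 SE, limma adjusted p = 0.00383). Of the markers of the line, TMPRSS2, FOXA1, KRT8 and KRT18 were detected on all 15 arrays, and KLK3 did not pass the detection filter. Replicate arrays correlated at 0.993 to 0.997 and had 18460 to 21220 detected probes. WP1130 arrays were dimmer than all others before normalisation: their mean raw intensity was 311 ± 5.2, against 417 ± 19.4 on DMSO arrays (SD, n = 3 each), or 74.6%. Quantile normalisation removes that difference, so every WP1130 change below is relative to the other genes of the array. Without scaling, the median change of all 12744 genes was -0.65.

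With WP1130, the 3 probes for U3 snoRNA rose far above all other snoRNAs. Box C/D snoRNAs had more risers than fallers after quantile normalisation, though not with the other scalings. Relative to all genes, their share of risers was higher and their share of fallers lower under each scaling. A probe could pass the detection filter through the 3 WP1130 arrays alone. Without that filter the share of box C/D risers was close to that of all genes (16.5%, against 15.2%), and the share of fallers stayed lower (6.82%, against 23.7%). Box H/ACA and Cajal body RNAs fell about as often as all genes or somewhat more often. Of the 186 genes, 101 passed the threshold, 54.3%, against 59% of all 12744 genes. The number that rose was 44 (23.7%, against 21.9% of all genes), and 57 fell (30.6%, against 37.1%). With median scaling 26 rose and 86 fell (46.2%, against 61.6% of all genes), and without scaling 20 rose and 116 fell (62.4%, against 73.1%). The set as a whole thus changed about as often as the array did, and its balance of risers and fallers depended on the scaling. The range over left-out arrays was 93 to 101 called genes.

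U3, the box C/D RNA that guides the early cleavages of the ribosomal RNA precursor rather than a methylation, gave the largest changes. SNORD3A stood at 11.73, 11.998 and 11.72 on the WP1130 arrays, against 8.06, 8.001 and 7.97 on the DMSO arrays. SNORD3C stood at 10.70, 10.98 and 10.67 with WP1130, against 6.51, 6.57 and 6.62 with DMSO, and SNORD3D at 12.04, 12.27 and 12.04, against 8.39, 8.46 and 8.40. All WP1130 arrays lay more than 3 log2 units above all DMSO arrays for each probe. The changes were 3.81 ± 0.12 for SNORD3A (13.99-fold, adjusted p = 2.99e-13), 4.21 ± 0.12 for SNORD3C (18.5-fold, adjusted p = 1.81e-13) and 3.70 ± 0.10 for SNORD3D (12.97-fold, adjusted p = 4.77e-14; limma for all). These genes are near-identical copies on chromosome 17, so the 3 probes may read the same RNA and are best taken as 1 measurement.

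U3 was not called with the ERG siRNAs. The mean SNORD3A level was 8.18 with ERG siRNA 1, 8.15 with ERG siRNA 2 and 8.10 with the non-targeting siRNA, a change for both siRNAs of 0.07 ± 0.10. SNORD13, the other measured snoRNA with its own promoter, which takes part in 18S ribosomal RNA acetylation, stood at 6.72, 6.85 and 6.43 with WP1130, against 6.57, 6.25 and 6.31 with DMSO. The groups overlapped and the change of 0.29 ± 0.12 did not pass the threshold (limma adjusted p = 0.0553).

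**Figure D1:**
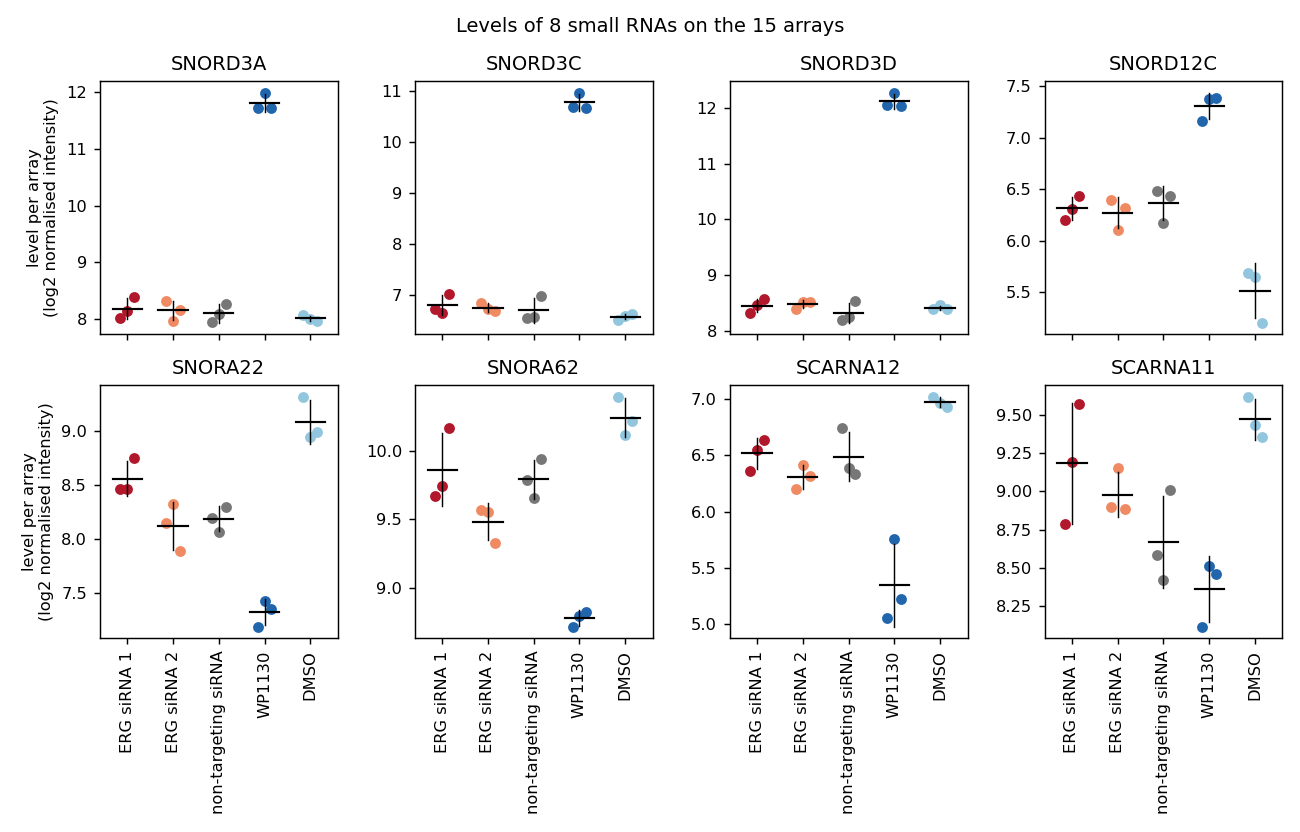
Level per array (log2 normalised intensity, vertical axis, own scale in each panel) of 8 small RNAs in the 5 groups. Points are arrays, horizontal bars are group means and vertical bars are 1 SD (n = 3). The 3 SNORD3 probes are high on the WP1130 arrays alone, between 10.67 and 12.27, while SNORA22, SNORA62, SCARNA12 and SCARNA11 are lower with WP1130 than with DMSO.

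Of all 73 box C/D snoRNAs, U3 included, 26 rose (35.6%, against 21.9% of all genes) and 13 fell (17.8%, against 37.1%). The median change was 0.14, against -0.12 over all genes. With median scaling 18 rose (24.7%, against 11.5%) and 18 fell (24.7%, against 61.6%). Without scaling 13 rose (17.8%, against 8.7%) and 34 fell (46.6%, against 73.1%), with a class median of -0.27, against -0.65 over all genes. Without the detection filter 29 of 176 rose (16.5%, against 15.2%) and 12 fell (6.82%, against 23.7%), so the larger share of risers depended on the filter. After quantile normalisation and without the 3 U3 probes, 23 of 70 rose and 13 fell. SNORD12C stood at 7.16, 7.38 and 7.39 with WP1130, against 5.68, 5.65 and 5.21 with DMSO. SNORD56 stood at 6.96, 7.21 and 7.04 with WP1130, against 5.53, 5.24 and 5.14 with DMSO, and SNORD99 at 6.24, 6.86 and 6.45, against 4.97, 4.72 and 5.12. In none of these did a WP1130 array reach down to a DMSO array. The changes were 1.80 ± 0.13 (adjusted p = 1.18e-08), 1.77 ± 0.14 (adjusted p = 3.65e-08) and 1.58 ± 0.15 (adjusted p = 2.96e-07, limma).

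SNORD14C, a copy of the U14 RNA needed for 18S processing, rose by 1.37, SNORD52 by 1.30, SNORD139 by 1.198, SNORD43 by 1.13 and SNORD88C by 1.10. SNORD114-3, from the imprinted snoRNA cluster on chromosome 14, was detected on all WP1130 arrays and on none of the DMSO arrays, with a mean of 5.42 with WP1130 and 4.42 with DMSO. Its rise was therefore a bound of at least 1.40-fold (limma adjusted p = 2.25e-07), the DMSO side being set for each array at the higher of the probe's value and the lowest detected signal. The other 14 risers among the box C/D genes changed by 0.29 to 0.90.

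The box C/D genes that fell were led by SNORD31, at 5.66, 5.65 and 5.85 with WP1130, against 6.99, 6.64 and 6.92 with DMSO, a change of -1.13 ± 0.10 (limma adjusted p = 1.13e-07). SNORD108, from the imprinted cluster on chromosome 15, stood at 4.91, 5.47 and 5.11, against 6.25, 5.92 and 5.997, a change of -0.90 ± 0.13. SNORD36C (-0.84), SNORD69 (-0.82), SNORD80 (-0.51), SNORD32B (-0.51), SNORD4A (-0.49) and SNORD30 (-0.48) followed. The changes of the class thus spread over more than 5 log2 units, from -1.13 to 4.21.

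Of 79 box H/ACA snoRNAs, 32 fell (40.5%, against 37.1% of all genes) and 10 rose (12.7%, against 21.9%), with a median change of -0.19, against -0.12 over all genes. With median scaling 48 fell (60.8%, against 61.6%) and 5 rose, and without scaling 58 fell (73.4%, against 73.1%) and 4 rose. The share that fell was therefore close to that of the whole array under each scaling. SNORA22 stood at 7.19, 7.43 and 7.35 with WP1130, against 9.32, 8.95 and 8.99 with DMSO. SNORA26 stood at 5.92, 5.82 and 5.99 with WP1130, against 7.49, 7.32 and 7.33 with DMSO. SNORA62, formerly E2, stood at 8.72, 8.80 and 8.83, against 10.40, 10.11 and 10.22. The gap between the groups was wider than 1 log2 unit in all of these. The changes were -1.76 ± 0.13 (adjusted p = 1.17e-08), -1.47 ± 0.11 (adjusted p = 3.47e-08) and -1.46 ± 0.12 (adjusted p = 7.33e-08, limma).

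SNORA9 (-1.46), SNORA13 (-1.11), SNORA38 (-1.05), SNORA50C (-0.96), SNORA74B (-0.87), SNORA33 (-0.80) and SNORA27 (-0.79) fell as well. Among the 10 that rose, SNORA14A was detected on all WP1130 arrays and no DMSO array, with a mean of 6.23 with WP1130 and 4.70 with DMSO, which makes its rise at least 2.48-fold (limma adjusted p = 3.53e-09). SNORA17A rose by 1.29, SNORA20 by 1.19, and SNORA17B by 1.15. SNORA20 stood at 6.61, 7.15 and 7.005 with WP1130, against 5.72, 5.75 and 5.72 with DMSO. Of the others, SNORA80E rose with an adjusted p of 0.000545 and the rest rose by 0.31 to 0.65.

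Cajal body RNAs fell in 9 of 19 genes (47.4%, against 37.1% of all genes) and rose in 2, with a median of -0.28; median scaling gave 13 lower (68.4%, against 61.6%) and 2 higher, and no scaling 14 lower (73.7%, against 73.1%) and 2 higher. SCARNA12 stood at 5.06, 5.76 and 5.23 with WP1130, against 7.02, 6.96 and 6.93 with DMSO, a change of -1.63 ± 0.15 (limma adjusted p = 2.02e-07). SCARNA11 stood at 8.12, 8.52 and 8.46, against 9.62, 9.43 and 9.36, and SCARNA8 at 8.75, 8.95 and 8.90, against 9.93, 9.79 and 9.82. No array of one group entered the range of the other. Their changes were -1.11 ± 0.18 (adjusted p = 8.13e-05) and -0.98 ± 0.17 (adjusted p = 0.000121, limma). The 2 that rose were dim: SCARNA7 was detected on no DMSO array and rose at least 1.44-fold (mean 5.45 with WP1130 and 4.72 with DMSO, limma adjusted p = 0.000841), and SCARNA3 rose by 0.68.

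**Figure D2:**
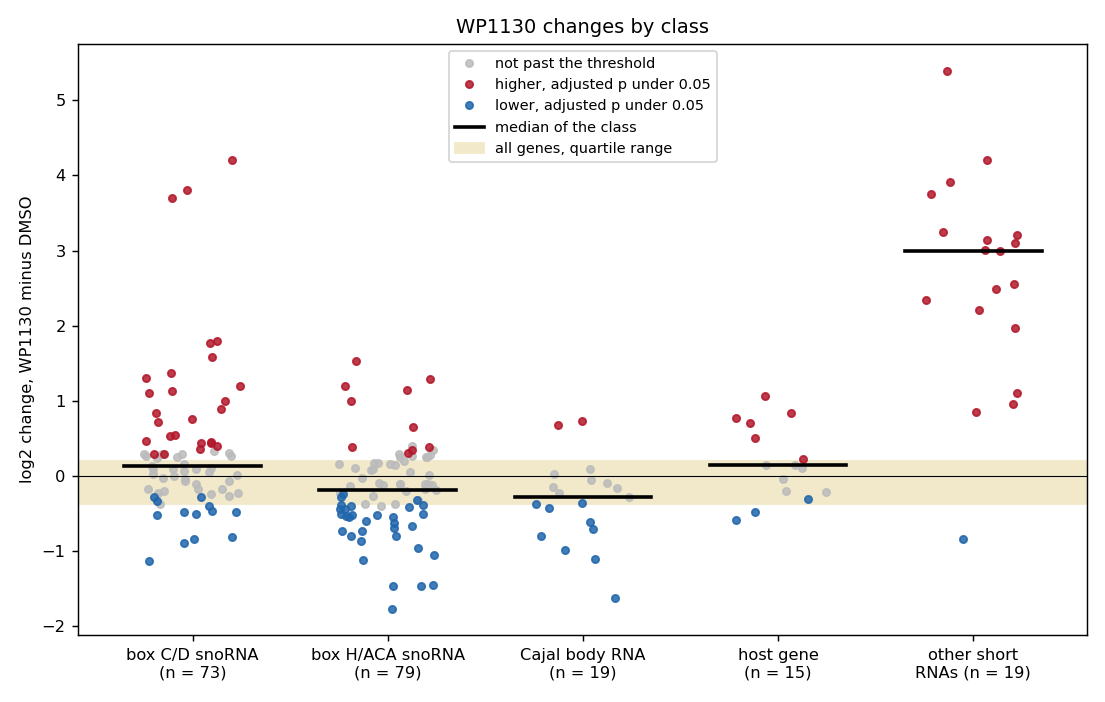
Change with WP1130 (log2, WP1130 minus DMSO, vertical axis) of each gene by class, with other short non-coding RNAs at the right. Each point is a gene, red where it rose and blue where it fell, thick bars are class medians (0.14, -0.19, -0.28, 0.14 and 2.99 from left to right), and the band is the quartile range of all 12744 genes.

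The rise of U3 was shared by most of the other short non-coding RNAs examined. A list of other short non-coding RNAs held spliceosomal, 7SK, Y, vault, RNase P and RNase MRP RNAs, and 19 of its 23 were measured. With WP1130, 18 rose and 1 fell, where 21.9% of all genes rose and 37.1% fell. The median change of the list was 2.99, against -0.12 over all genes. RNU6ATAC, of the minor spliceosome, stood at 10.40, 10.67 and 10.44 with WP1130, against 5.01, 5.04 and 5.28 with DMSO, a change of 5.39 ± 0.14. RN7SK, the RNA that holds the elongation factor P-TEFb inactive, stood at 13.27, 13.40 and 13.24, against 9.18, 8.98 and 9.10, a change of 4.21 ± 0.09. Both are separated by more than 4 log2 units between the groups. Without scaling 17 of the 19 still rose, with a median of 2.26.

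The single RNA of that list that fell was TERC, the telomerase RNA, which carries a box H/ACA domain bound by the same core proteins as the SNORA genes. It stood at 5.74, 5.55 and 6.25 with WP1130, against 6.69, 6.64 and 6.71 with DMSO, a change of -0.83 ± 0.14 (limma adjusted p = 9.11e-05). All WP1130 arrays lay below all DMSO arrays for TERC. The raw intensity of the WP1130 arrays moved in the opposite direction to these RNAs, and the part of RNA composition or labelling in the short-RNA signals was not tested.

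Among the 15 host genes, 6 rose with WP1130 (40%, against 21.9% of all genes) and 3 fell (20%, against 37.1%). The counts with median scaling were 1 risen (6.67%, against 11.5%) and 7 fallen (46.7%, against 61.6%). They were 1 risen (6.67%, against 8.7%) and 10 fallen (66.7%, against 73.1%) without scaling. SNHG12, which carries SNORD99, stood at 6.99, 6.96 and 7.01 with WP1130, against 5.92, 5.55 and 6.28 with DMSO. The change was 1.07 ± 0.14 (limma adjusted p = 8.6e-06), and SNHG12 was the gene that rose under every scaling. Between the control groups SNHG12 changed by -0.66 (DMSO minus non-targeting siRNA, limma adjusted p = 0.00264), so its rise was measured from the lower control level. SNHG17 stood at 9.16, 8.98 and 8.82, against 8.23, 8.19 and 8.03, a change of 0.84 ± 0.10 that shrank to 0.05 without scaling. The levels of both genes were higher on every WP1130 array than on any DMSO array. SNHG11 (0.77), SNHG7 (0.70), SNHG1 (0.51) and SNHG9 (0.22) also rose relative to the array, while without scaling SNHG11 lay at -0.0047, SNHG7 at -0.0094, SNHG1 at -0.22 and SNHG9 at -0.57. The SNHG9 call was also lost without WP1130 replicate 2 (0.19, limma adjusted p = 0.0539).

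SNHG1, the host of U22 and its neighbours, stood at 10.35, 10.24 and 10.31 with WP1130, against 9.74, 9.90 and 9.75 with DMSO. SNHG7 stood at 11.07, 10.98 and 10.93, against 10.18, 10.37 and 10.33. The groups did not overlap for either gene. The other SNHG7 probes gave 0.58 ± 0.10 and, for the dimmest, 2.53 ± 0.10 (adjusted p = 5.67e-12 with each probe tested on its own), so the probes of SNHG7 shared the direction and differed in size.

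The host genes that fell were SNHG3 (-0.59 ± 0.17, adjusted p = 0.00877), SNHG4 (-0.48 ± 0.08, adjusted p = 7.87e-05) and SNHG8 (-0.31 ± 0.08, adjusted p = 0.00355, limma). SNHG4, a host of U19, stood at 7.32, 7.21 and 7.35 with WP1130, against 7.71, 7.81 and 7.81 with DMSO, without overlap. SNHG3 was near background, being detected on 1 WP1130 array and 2 DMSO arrays, and its arrays overlapped. Changes of SNHG5 (0.11), SNHG6 (0.14), SNHG10 (-0.20), SNHG15 (0.14), SNHG32 (-0.04) and GAS5 (-0.22) did not pass the threshold. A second, dimmer SNHG32 probe gave -0.88 ± 0.19 (adjusted p = 0.00109 with each probe tested on its own), unlike the bright one.

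**Figure D3:**
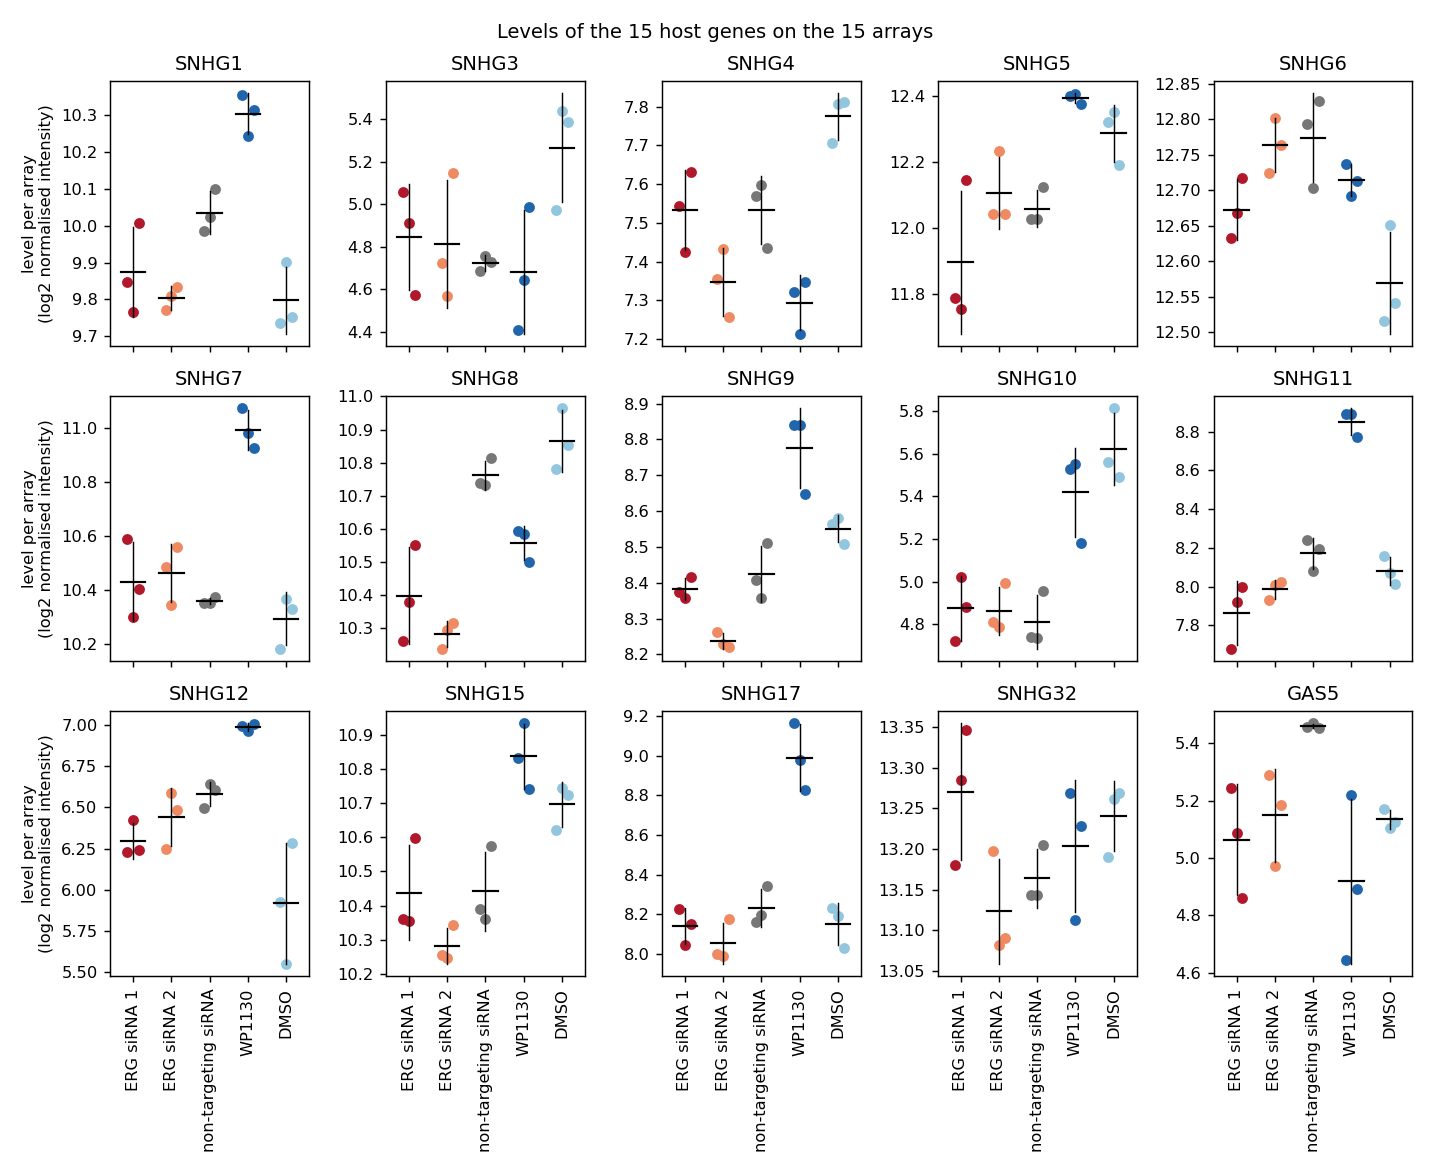
Level per array (log2 normalised intensity, vertical axis, own scale in each panel) of the 15 host genes in the 5 groups. Points are arrays, horizontal bars are group means and vertical bars are 1 SD (n = 3). SNHG12, SNHG17, SNHG11, SNHG7 and SNHG1 have their highest means on the WP1130 arrays, and SNHG8 its lowest means with the ERG siRNAs.

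Where a small RNA and its host transcript were both called with WP1130, they shared a direction more often than not. By position in the RefSeq gene table (GRCh38.p14), 165 of the 171 small RNAs lay inside a larger gene, and that gene was measured for 134 of them, in 93 host genes; strand was not used. With WP1130, 92 of the 171 small RNAs were called in all (53.8%, against 59% of all genes). Among the 134 pairs, small RNA and host both rose in 15 and both fell in 15, whereas they moved in opposite directions in 14: the small RNA rose and the host fell in 8, and the reverse held in 6. In 29 the small RNA was called and the host was not, in 41 the host alone was called, and in 20 neither was. A call in only the small RNA or only the host does not show that their changes differed, as that difference was not tested. Whether these counts differ from those of unrelated genes was not tested either. Pairs that share a host are not independent. The pairs were counted after quantile normalisation and were not counted again with the other scalings.

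Box C/D RNAs rose inside a host that fell in 7 pairs from 4 hosts, and fell inside a host that rose in 2 pairs from 1 host. Box H/ACA RNAs rose inside a falling host in 1 pair and fell inside a rising host in 4 pairs from 4 hosts. The difference between the classes was not tested. RPL3, a ribosomal protein gene, fell by 0.23 while its 3 measured snoRNAs SNORD139 (1.198), SNORD43 (1.13) and SNORD83B (0.53) rose, although SNORD83B lay at -0.089 without scaling. C19orf48P changed by -0.75 ± 0.07, and its SNORD88C (1.10) and SNORD88B (0.76) rose, although SNORD88B was not called without scaling (0.18, limma adjusted p = 0.19). NOP56 encodes a core protein of box C/D particles and stood at 10.98, 11.04 and 11.13 with WP1130, against 11.94, 11.81 and 11.89 with DMSO. It fell by 0.83 while SNORD56 in its intron rose by 1.77 and SNORA51 changed by -0.52.

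In the other direction, CCT6P1 rose by 0.27 around SNORA22 (-1.76), GTF2A1 by 1.42 around SNORA79 (-0.70), and SNHG17 by 0.84 around SNORA71A (-0.54). SNHG1 rose by 0.51 relative to the array while SNORD31 (-1.13) and SNORD30 (-0.48) fell and SNORD25 rose by 0.29, SNHG1 and SNORD25 being the ones that turned negative under both other scalings. The SNORD25 call was lost without DMSO replicate 1 (0.26, limma adjusted p = 0.0568) or WP1130 replicate 2 (0.22, adjusted p = 0.0768). TAF1D, a subunit of the RNA polymerase I initiation factor SL1, stood at 7.91, 8.04 and 8.32 with WP1130, against 7.26, 6.89 and 7.35 with DMSO. Of its 6 measured small RNAs, SNORD6 rose by 0.29 (-0.24 without scaling), SNORA18 changed by -0.38, and SNORA1, SNORA8, SNORA25 and SNORA32 did not pass the threshold. RPL13A changed by -0.51, and none of its 4 snoRNAs was called.

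Host and small RNA rose together at SNHG12 (1.07) with SNORD99 (1.58) and SNORA16A (0.39), at SNHG7 (0.70) with SNORA17A (1.29) and SNORA17B (1.15), at TCP1 (1.71) with SNORA20 (1.19), at HSPA8 (0.36) with SNORD14C (1.37), and at ZFAS1 (0.24) with SNORD12C (1.80) and SNORD12 (0.46). The rises of HSPA8 and ZFAS1, like that of CCT6P1, are relative to the array and were not examined with the other scalings. The arrays of SNORA16A and of SNORD12 overlapped between the groups. Without WP1130 replicate 2, for example, SNORA16A stood at 0.25 (limma adjusted p = 0.17) and SNORD12 at 0.43 (adjusted p = 0.104). Each was lost in 4 of 6 such repeats and under both other scalings. They fell together at DANCR (-0.72) with SNORA26 (-1.47), at PHB2 (-0.54) with SCARNA12 (-1.63) and at PRRC2A (-0.66) with SNORA38 (-1.05). Of 25 hosts with 2 or more measured small RNAs, 3 held both a riser and a faller, 14 held called and uncalled ones, and the median spread between highest and lowest within a host was 0.57 log2 units.

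**Figure D4:**
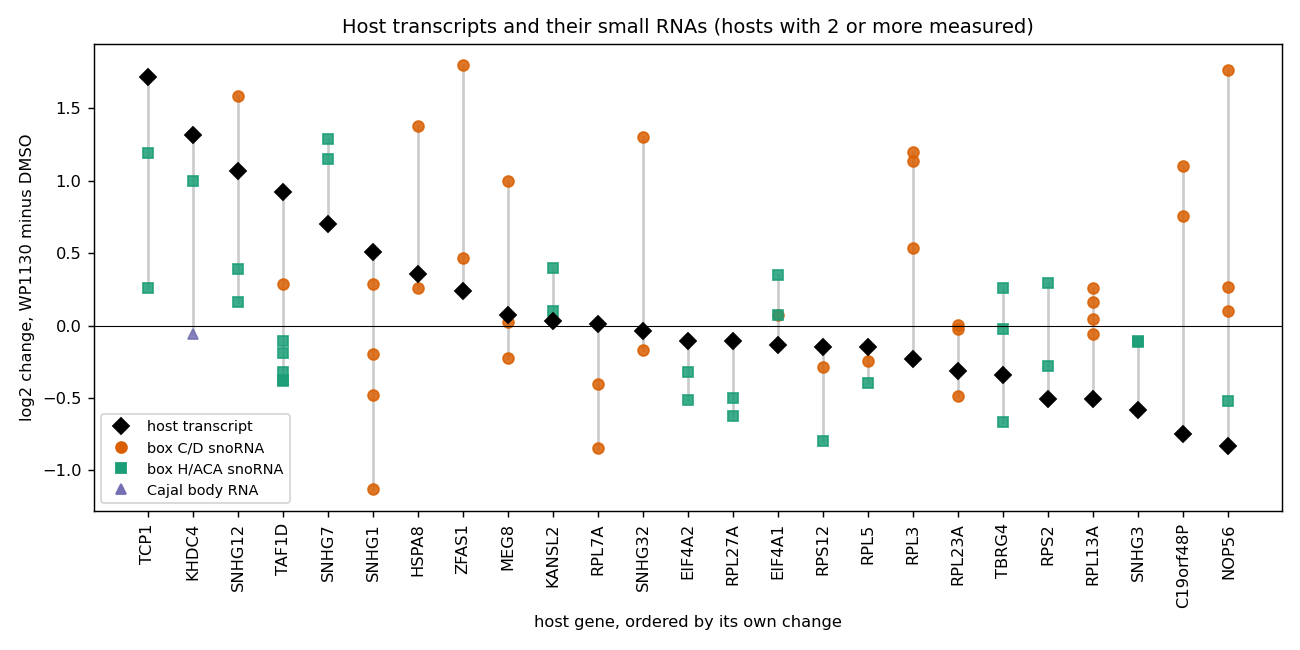
Change with WP1130 (log2, WP1130 minus DMSO, vertical axis) of 25 host transcripts (black diamonds) and of the small RNAs inside them (circles, squares and triangles by class), ordered by the host's change. NOP56 at the right end changed by -0.83 and its SNORD56 by 1.77, and the small RNAs of SNHG1 range from -1.13 to 0.29.

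Genes for the snoRNA machinery were examined as lists chosen with earlier results known. Their counts stand beside 59% of all genes called with WP1130, 37.1% lower and 21.9% higher, and nothing is read from shares near these. All 4 box H/ACA core protein genes fell with WP1130, led by DKC1, the pseudouridine synthase (-0.80), and NHP2 (-0.62). Of the 4 measured box C/D core genes, NOP56 (-0.83) and SNU13 (-0.56) fell and NOP58 rose by 0.48. DKC1 stood at 10.57, 10.38 and 10.53 with WP1130, against 11.30, 11.20 and 11.38 with DMSO. Of 9 assembly factors 5 fell, among them RUVBL1 (-0.77) and ZNHIT6 (-0.76), and NUFIP1 rose by 0.82.

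All 16 measured trimming and debranching genes changed, 11 downward and 5 upward. DBR1, which opens intron lariats, changed by -0.85, the exosome nuclease gene DIS3 by -0.79, and TENT4B, which adds short tails that mark RNAs for trimming, rose by 1.11. Of 8 Cajal body, cap and transport genes, 3 fell, led by XPO1 (-0.48) and NOLC1 (-0.47), and WRAP53, which binds Cajal body RNAs, rose by 0.48. Nonsense-mediated decay genes split into 4 higher, led by SMG8 (1.40), and 3 lower, led by SMG1 (-0.60), of 10. Among 44 measured protein-coding hosts 21 fell and 3 rose, with a median of -0.15, against -0.12 over all genes.

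Few of these RNAs were called with the ERG siRNAs, and the balance of risers and fallers depended on the scaling, as it did for all genes. For the mean of both siRNAs, 14 of 186 passed the threshold (7.53%), against 20.2% of all genes: 4 rose (2.15%, against 10.7%) and 10 fell (5.38%, against 9.58%). With median scaling 8 rose (4.3%, against 9.6% of all genes) and 4 fell (2.15%, against 4.56%). Without scaling 7 rose (3.76%, against 6.73%) and 4 fell (2.15%, against 4.28%). The balance over the whole array moved the same way: risers were 52.7% of all called genes, 67.8% with median scaling and 61.1% without scaling. ERG siRNA 1 alone gave 7 calls (3.76%, against 13%), 3 higher (6.75% of all genes) and 4 lower (6.25% of all genes). ERG siRNA 2 alone gave 15 (8.06%, against 18.6%), 2 higher (10% of all genes) and 13 lower (8.59% of all genes). The set was therefore called less often than the array in each comparison, and no member changed by 2-fold. Members were dimmer, with a median level of 6.16, against 7.05 over all genes. For the mean of both siRNAs the quartile range of changes was -0.13 to 0.11 over the members and -0.12 to 0.12 over all genes. Fewer calls thus do not show a weaker response, and the part of signal level in them was not tested. Without replicate 2 of the non-targeting siRNA the count for both siRNAs was 8, and over all left-out arrays it ran from 8 to 19.

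SNORA50C and SNHG8 were the clearest. SNORA50C stood at 7.87, 7.89 and 8.10 with ERG siRNA 1 and 7.65, 7.77 and 7.79 with ERG siRNA 2, against 8.34, 8.30 and 8.30 with the non-targeting siRNA, a mean change of -0.47 ± 0.07 (limma adjusted p = 0.000129). SNHG8 stood at 10.26, 10.38 and 10.55 with ERG siRNA 1 and 10.24, 10.29 and 10.31 with ERG siRNA 2, against 10.74, 10.73 and 10.81 with the non-targeting siRNA, a change of -0.42 ± 0.07 (limma adjusted p = 0.000428). Every ERG siRNA array lay below every non-targeting array for both. The snoRNA inside SNHG8, SNORA24, stood at 7.81, 7.65 and 7.89 and at 7.30, 7.34 and 7.50, against 8.004, 7.99 and 8.08, a change of -0.44 ± 0.09 (limma adjusted p = 0.002). It was the 1 pair of 134 in which host and small RNA both fell.

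SNORD14A (-0.25) and SNORD100 (0.35) were also called with each siRNA, as were SNORA50C and SNHG8; these were the 4 called in the same direction with both, and none was called in opposite directions. SNORD100 stood at 5.34, 5.38 and 5.15 and at 5.19, 5.35 and 5.33, against 4.91, 4.87 and 5.05 with the non-targeting siRNA, where it was detected on 1 array. SNORD49A (-0.38), SNORD104 (-0.35), SNORD6 (-0.33), SNHG11 (-0.25) and SNHG1 (-0.20) fell, and SNORA74B (0.43), SCARNA21 (0.31) and SCARNA4 (0.24) rose, in the mean of both. GAS5, whose RNA accumulates in growth-arrested cells, stood at 5.24, 5.09 and 4.86 with ERG siRNA 1 and 5.29, 4.97 and 5.19 with ERG siRNA 2, against 5.46, 5.47 and 5.45, a change of -0.35 ± 0.11 (limma adjusted p = 0.033).

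The calls of GAS5, SNORD49A, SNHG1, SCARNA21 and SCARNA4 were each lost on leaving out any of 5 to 8 of the 9 arrays, and that of SNHG11 on leaving out any of 3. Leaving out replicate 2 of the non-targeting siRNA ended the calls of SNORA74B (0.32, limma adjusted p = 0.053) and SNORD14A (-0.23, adjusted p = 0.0536). Those of GAS5, SNORD49A, SNHG1, SNHG11, SNORD6, SNORD14A and SCARNA4 were lost with median scaling. ERG siRNA 2 against ERG siRNA 1 gave 0 calls by limma, against 0.118% of all genes called (0.0628% higher and 0.0549% lower). At an unadjusted p under 0.05 there were 37 members (19.9%), against 1111 of all genes (8.72%), and the median change was -0.12 over the members and 0.0068 over all genes. Of the 4 box C/D core protein genes 3 fell with the ERG siRNAs, led by the methyltransferase gene FBL (-0.34) and NOP58 (-0.29), as did NHP2 (-0.26) and GAR1 (-0.24) of the box H/ACA particles. In this comparison 9.58% of all genes fell and 10.7% rose. Fallers were 2 of 9 assembly factors, 4 of 16 trimming and debranching genes and 1 of 10 nonsense-mediated decay genes. Of 8 Cajal body, cap and transport genes 0 fell and 1 rose. Among the other short RNAs RPPH1, the RNase P RNA, rose by 0.38, and the other 18 were not called.

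The WP1130 change minus the mean ERG siRNA change was tested directly. It passed the threshold for 84 of 186 (45.2%, against 50.7% of all genes), 39 of them higher with WP1130 (20.97%, against 19.8%) and 45 lower (24.2%, against 31%). With median scaling 22 were higher and 83 lower (44.6%, against 58.2% of all genes), and without scaling 18 were higher and 100 lower (53.8%, against 66.7%). The SNORD3 probes differed by 3.56 to 4.14. SNORA74B changed by -0.87 with WP1130 and by 0.43 with the ERG siRNAs, a difference of -1.30 ± 0.15 (limma adjusted p = 4.57e-06). SNORA24 changed by 0.06 and by -0.44, a difference of 0.50 ± 0.13 (adjusted p = 0.00548). SNORA50C fell in both, by 0.96 with WP1130 and by 0.47 with the ERG siRNAs, a difference of -0.50 ± 0.10 (adjusted p = 0.000765). SNHG8 fell in both, and the difference was 0.11 (95% interval -0.11 to 0.34), which became -0.43 with median scaling and -0.59 without scaling.

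The control groups themselves differed in these RNAs. DMSO cells against non-targeting siRNA cells gave 61 calls of 186 (32.8%, against 24.7% of all genes), 31 higher (16.7%, against 13.1%) and 30 lower (16.1%, against 11.6%). Box C/D snoRNAs were lower in DMSO cells in 19 of 73 and higher in 1, while box H/ACA snoRNAs were higher in 18 of 79 and lower in 8, and Cajal body RNAs higher in 8 of 19 and lower in 0. Transfection, vehicle and any difference in culture time cannot be told apart in this comparison. It shares the DMSO arrays with the WP1130 comparison, so the levels of the groups are given side by side.

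SNORD12C averaged 7.31 ± 0.13 with WP1130, 5.51 ± 0.27 with DMSO and 6.37 ± 0.17 with the non-targeting siRNA (SD, n = 3 each). SNORA22 averaged 7.32 ± 0.12 with WP1130, 9.09 ± 0.20 with DMSO and 8.19 ± 0.12 with the non-targeting siRNA. Cajal body SCARNA11 averaged 8.36 ± 0.22 with WP1130, 9.47 ± 0.13 with DMSO and 8.67 ± 0.30 with the non-targeting siRNA. In these 3 genes the non-targeting level lay between the other groups. DMSO minus non-targeting siRNA gave -0.66 for SNHG12 (limma adjusted p = 0.00264) and -0.83 for its SNORD99 (adjusted p = 0.000843). The WP1130 rises of SNHG12 (1.07) and SNORD99 (1.58) were thus measured from the lower control level. SNORA26 averaged 5.91 ± 0.09 with WP1130, 7.38 ± 0.09 with DMSO and 7.45 ± 0.15 with the non-targeting siRNA. SNORD3A averaged 11.82 ± 0.16 with WP1130, 8.01 ± 0.05 with DMSO and 8.10 ± 0.16 with the non-targeting siRNA. Neither of these was called between the control groups. SNORD31 averaged 5.72 ± 0.12 with WP1130, 6.85 ± 0.18 with DMSO and 7.46 ± 0.02 with the non-targeting siRNA, and none of these ranges overlapped.

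**Figure D5:**
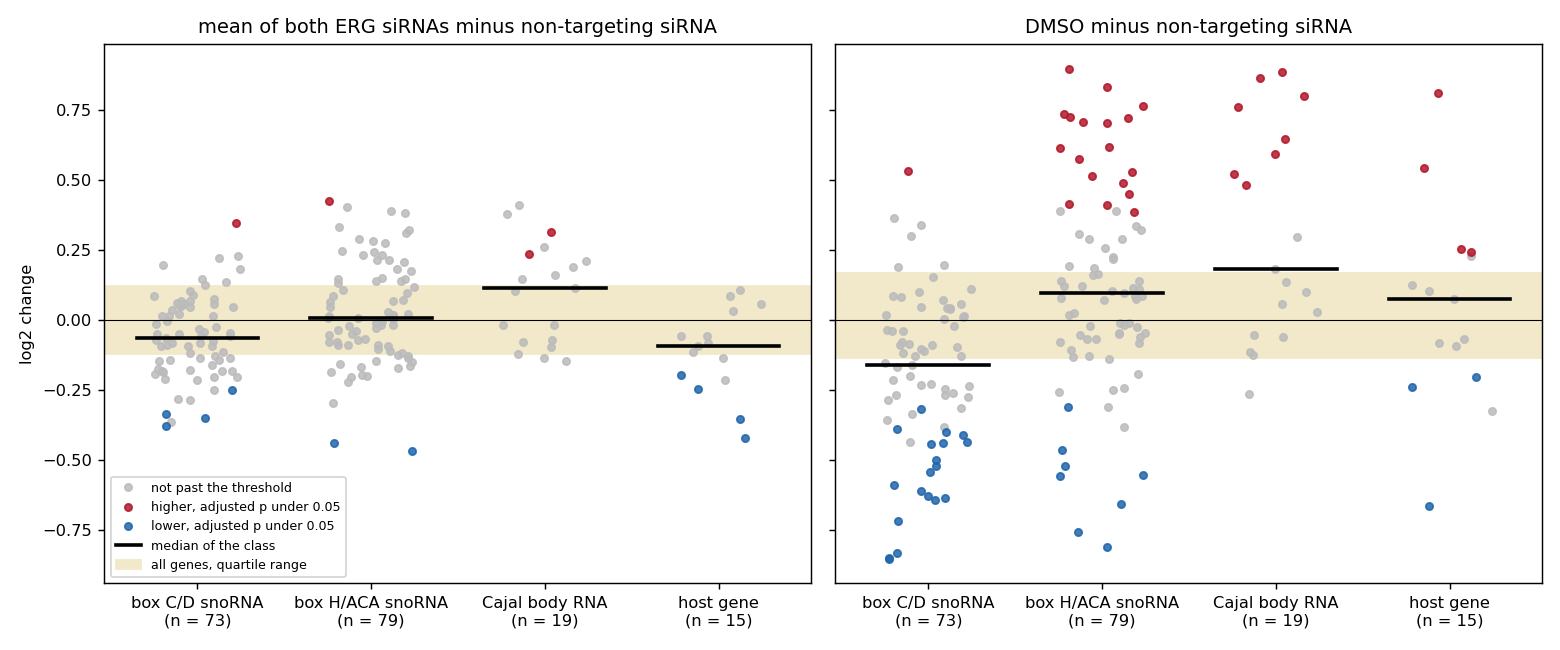
Change (log2, vertical axis) of each gene by class for the mean of both ERG siRNAs minus the non-targeting siRNA (left) and for DMSO minus the non-targeting siRNA (right). Red points rose and blue points fell at a limma adjusted p under 0.05, thick bars are class medians and the band is the quartile range of all genes. Box C/D points lie mostly below 0 in the right panel, where 19 fell and 1 rose.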

How the data were processed

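Intensities of 47322 probes and a detection p-value per probe and array were taken as deposited, per the file headers, in a non-normalized table. The submitters' processing notes name GenomeStudio; no label gives its role or version. The authors' processed intensities, deposited in a second table, served as an alternative. Arrays were assigned to groups by their treatment and title labels. With neqc of limma 3.58.1 (R 4.3.3), intensities were background-corrected (normexp with offset 16, background estimated through the detection p-values), quantile normalised and put on the log2 scale. Probes needed a detection p under 0.05 on at least 3 of 15 arrays. Of all probes, 30113 had 1 symbol, 8 several and 17201 none listed; the probe with the highest mean stood for each of 12744 genes. A 5-group limma model (10 residual degrees of freedom, eBayes, two-sided, Benjamini-Hochberg over all genes, threshold 0.05) gave every p-value, and the step was tested on simulated data. With 3 arrays a group, a difference of 2 groups had a median SE of 0.10. The smallest gene enclosing a small RNA in RefSeq's GRCh38.p14 table was taken as its host. Any member could be named, as could hosts measured around a small RNA; from each gene list, at most the 2 largest rises and 2 largest falls past the threshold were named for the ERG siRNAs and for WP1130. The members, gene lists and motifs were chosen with earlier results of these data known. Same-numbered replicates deviated together weakly (correlations of -0.06 to 0.14, 3 of 30 above 0.1), so the numbers were not used to pair samples. Alternatives were other background correction, scaling, filters, fits and thresholds, and leaving out each array.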

Additional observations from a re-analysis of the deposited data

How the results depend on the processing

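Scaling between arrays had the largest effect on the WP1130 results, since it moved the median of all genes from -0.12 to -0.46 (median scaling) or -0.65 (no scaling). Of all called genes, 37.1% were risers, against 15.7% with median scaling and 10.6% without; for box C/D snoRNAs these shares were 66.7%, 50% and 27.7%, for box H/ACA snoRNAs 23.8%, 9.43% and 6.45%, and for host genes 66.7%, 12.5% and 9.09%. With the authors' processed values they were 65.8%, 22% and 66.7% for these 3 classes. WP1130 changes that reversed were SNORD104 (-0.15 with median scaling, -0.34 without scaling), SNORD25 (-0.10 and -0.29), SNORD6 (-0.054 and -0.24), SNHG1 (-0.027 and -0.22) and SNHG9 (-0.38 and -0.57). Without scaling only, SNORD83B (-0.089), SNORA28 (-0.15), SNORA16A (-0.18), SNHG11 (-0.0047) and SNHG7 (-0.0094) reversed. The difference between the WP1130 and ERG siRNA effects reversed for SNHG8 (-0.43 and -0.59) and, without scaling, for SNHG1 (-0.037). In all, 12 of 99 named changes reversed in at least 1 setting, and 29 either reversed or lost their call. The cause was not tested.

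Counts of called members moved by more than 1.5 times as follows. For ERG siRNA 1 (7), they were 14 without background correction, 12 with a stricter detection filter, 12 with a trended robust fit, 2 at an adjusted p under 0.01, 0 at 1.5-fold, and 4 to 14 over left-out arrays (4 without replicate 1 or 2 and 11 without replicate 3 of the non-targeting siRNA, and 14 without replicate 1 of ERG siRNA 1). For ERG siRNA 2 (15), they were 8 without scaling, 8 at an adjusted p under 0.01, 1 at 1.5-fold, and 11 to 14 over left-out arrays. For both siRNAs (14), they were 7 at an adjusted p under 0.01, 0 at 1.5-fold, and 8 to 19 over left-out arrays. For WP1130 (101), the count was 55 at 1.5-fold and 93 to 101 over left-out arrays. Between the siRNAs (0), 2 were called without background correction, 1 with the stricter filter and 1 with the trended robust fit. For DMSO against the non-targeting siRNA (61), there were 39 at an adjusted p under 0.01, 30 at 1.5-fold and 46 to 57 over left-out arrays. The difference of effects (84) ran from 79 to 84. With the replicate number as a block the counts were 9, 15, 13, 104, 0, 81 and 63 for ERG siRNA 1, ERG siRNA 2, both, WP1130, between siRNAs, the difference of effects and DMSO. The SNHG1 call for both ERG siRNAs was lost with the block (-0.20, limma adjusted p = 0.0558); 10 of 15 arrays correlated best with an array of their own number.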
